A study of Homo sapiens with 7 samples.

Results

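The miR-30 family comprises hsa-miR-30a-5p, hsa-miR-30b-5p, hsa-miR-30c-5p, hsa-miR-30d-5p and hsa-miR-30e-5p, written below without the species prefix. These 5 microRNAs were chosen by name among the 480 mature microRNAs of the deposited table, with the highest row where a name had several. The study sequenced the small RNA of 7 captures from A375 cells, a line derived from human melanoma. Cells of all 7 captures were fixed with formaldehyde a day after seeding. By the miR-CATCHv2.0 protocol, probes then pulled down an mRNA together with the microRNAs on it. BRAF encodes a kinase, and the probes of 3 ODD and 3 EVEN captures were made against the 3' UTR of its X1 mRNA isoform, while 1 capture with scrambled probes served as the control. ODD and EVEN captures together are called X1-probe captures. The question put to the captures was which microRNAs bind the X1 isoform.

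MicroRNAs are short RNAs that guide Argonaute proteins to mRNAs, mostly by pairing of their seed, bases 2 to 8 from the 5' end, with sites in the 3' UTR. Members of a family share the seed and can therefore bind the same sites. The miR-30 family is widely expressed. It is known for repressing SNAI1, a transcription factor of the epithelial-mesenchymal transition, and the autophagy gene BECN1, and miR-30b and miR-30d are known for promoting melanoma invasion through repression of the glycosyltransferase GALNT7.

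The mature sequences of the miR-30a, miR-30c and miR-30e members are shown because their near identity bears on how reads can be assigned to them. They come from RefSeq (GRCh38.p14) and are given for 3 of the 5 members. Entries on a chromosome were left out by choice beforehand, and miR-30b-5p and miR-30d-5p were not compared by sequence. Capitals mark the seed.
miR-30a-5p: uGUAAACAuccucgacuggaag
miR-30e-5p: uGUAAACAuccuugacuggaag
miR-30c-5p: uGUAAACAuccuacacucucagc
All 3 carry the same seed and the same first 12 bases. miR-30e-5p differs from miR-30a-5p by a single substitution, C13U, with positions counted from the 5' end and the base of miR-30a-5p given first. miR-30c-5p differs from miR-30a-5p by C13A, G14C, G18C, G19U and A20C, and is 23 bases long, against 22 bases for miR-30a-5p. miR-30a-5p lies at chr6:71403595-71403616 on the minus strand. miR-30e-5p lies at chr1:40754371-40754392 on the plus strand, within the bounds of NFYC, a gene for a subunit of the transcription factor NF-Y. miR-30c-5p has 2 genomic copies with the same mature sequence. One copy, from MIR30C1, lies at chr1:40757300-40757322 on the plus strand, also within NFYC, with 2837 bases between its hairpin and that of miR-30e. The other, from MIR30C2, lies at chr6:71377003-71377025 on the minus strand, with 26519 bases between its hairpin and that of miR-30a.

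Each library's total over all hairpin rows was 4049 to 35508 reads with X1 probes and 4647 reads with scrambled probes, so 1 read was worth 28.2 to 247 RPM with X1 probes and 215 RPM with scrambled probes. RPM, the deposited unit, scales every library to the same total. Sums over the pigment cell microRNAs were 6672 to 9020 RPM with X1 probes and 5595 RPM with scrambled probes, with 3 of 6 listed microRNAs seen. Of these sums miR-204-5p gave 1352 to 2937 RPM with X1 probes and 861 RPM with scrambled probes. The rest came from miR-146a-5p and miR-509-3p. No library held miR-513a-5p, miR-514a-3p or miR-211-5p, which pigment cells are known for. Sums over lists for blood, epithelium, muscle, neurons and liver were each at most 988 RPM with X1 probes and 1291 RPM with scrambled probes. The part of these lists in the miR-30 values was not tested.

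The family as a whole made up 2.19% to 3.33% of the RPM total of a library. Its 5 members summed to 28989 ± 4512 RPM in the ODD captures (SD, n = 3), to 25771 ± 3418 RPM in the EVEN captures (SD, n = 3) and to 29697 RPM with scrambled probes. As a share of the RPM total this was 2.74% ± 0.399 over the X1-probe captures (SD, n = 6), against 2.97% in the scrambled one (exact 95% interval 2.50% to 3.50%). The scrambled library lay inside the range of the X1-probe libraries, which ran from 2.19% in EVEN replicate 2 (interval 1.96% to 2.45%) to 3.33% in ODD replicate 3 (2.80% to 3.93%). The interval of EVEN replicate 2 lay below those of ODD replicate 3, ODD replicate 1 (2.62% to 3.26%) and EVEN replicate 1 (2.52% to 3.21%). It also lay below that of the scrambled library. Between 4 and 9 single microRNAs exceeded the family's sum in an X1-probe library, and 5 did in the scrambled library. Read intervals throughout are exact Clopper-Pearson 95% intervals and reflect counting error alone, as copies of a molecule made by PCR count as separate reads. RPM is a share of each library, so a difference in the total amount of RNA captured would not show in these values.

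The most abundant member was miR-30a-5p, the family member known for repressing BECN1. It had 14138, 11969 and 17041 RPM in ODD replicates 1 to 3, from 69 to 425 reads. It had 13022, 12352 and 14265 RPM in EVEN replicates 1 to 3, from 68 to 179 reads, and 16355 RPM in the scrambled library, from 76 reads. The scrambled library lay above 5 of the 6 X1-probe libraries and below ODD replicate 3, and the ODD and EVEN ranges overlapped. By level over the 7 libraries miR-30a-5p ranked 15 among the mature names, between let-7f-5p (14168 RPM) and let-7i-5p (12198 RPM). The next places were taken by miR-22-3p (15534 RPM) above and miR-10b-5p (11427 RPM) below.

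miR-30d-5p, which is known for promoting melanoma invasion, came second. It had 9425, 8111 and 11114 RPM in ODD replicates 1 to 3 and 10224, 5589 and 7552 RPM in EVEN replicates 1 to 3. The scrambled library had 8608 RPM, from 40 reads, with 3 of the 6 X1-probe libraries above it. EVEN replicate 2 was the lowest library, at 81 reads and an interval of 4441 to 6942 RPM. Its neighbours in level were miR-221-3p (9119 RPM) above and miR-182-5p (7702 RPM) and miR-26a-5p (7330 RPM) below.

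miR-30e-5p differs from miR-30a-5p by the substitution C13U shown above, yet had a much lower level. It had 3789, 1971 and 2470 RPM in ODD replicates 1 to 3 and 2583, 2139 and 1888 RPM in EVEN replicates 1 to 3, against 2367 RPM in the scrambled library, from 11 reads. ODD replicate 1 stood highest, and the other 5 X1-probe libraries lay on both sides of the scrambled one. Its neighbours in level were miR-140-3p (2543 RPM) and miR-378a-3p (2536 RPM) above and miR-3180 (2404 RPM) and miR-31-5p (2307 RPM) below.

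miR-30c-5p, the member with 2 genomic copies, had a level close to that of miR-30e-5p. It had 1478, 1802 and 2470 RPM in ODD replicates 1 to 3 and 2045, 1725 and 3147 RPM in EVEN replicates 1 to 3. The scrambled library had 1722 RPM, from 8 reads, and 5 of the 6 X1-probe libraries lay above it. The table listed miR-30c-5p under 1 hairpin row, so its reads cannot be divided between the copies. Next to it in level were miR-204-5p (2082 RPM) and miR-28-3p (2065 RPM) above and miR-27a-3p (1929 RPM) and miR-320b (1753 RPM) below.

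miR-30b-5p, which shares with miR-30d-5p the known role in melanoma invasion, was rare, with 34 reads in all 7 libraries. The ODD captures held 5, 17 and 1 of these reads, the EVEN captures 6, 2 and 0, and the scrambled capture 3. In RPM these were 462, 479 and 247 with ODD probes, 646, 138 and 0 with EVEN probes, and 646 with scrambled probes (exact 95% interval 133 to 1885). The 0 reads in EVEN replicate 3 allow a level of up to 629 RPM, taking 3 reads as the floor, which is above the level in 4 of the other 5 X1-probe libraries. The closest microRNAs in level were miR-484 (398 RPM), miR-361-3p (390 RPM), miR-3960 (364 RPM) and miR-767-5p (362 RPM).

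**Figure D1:**
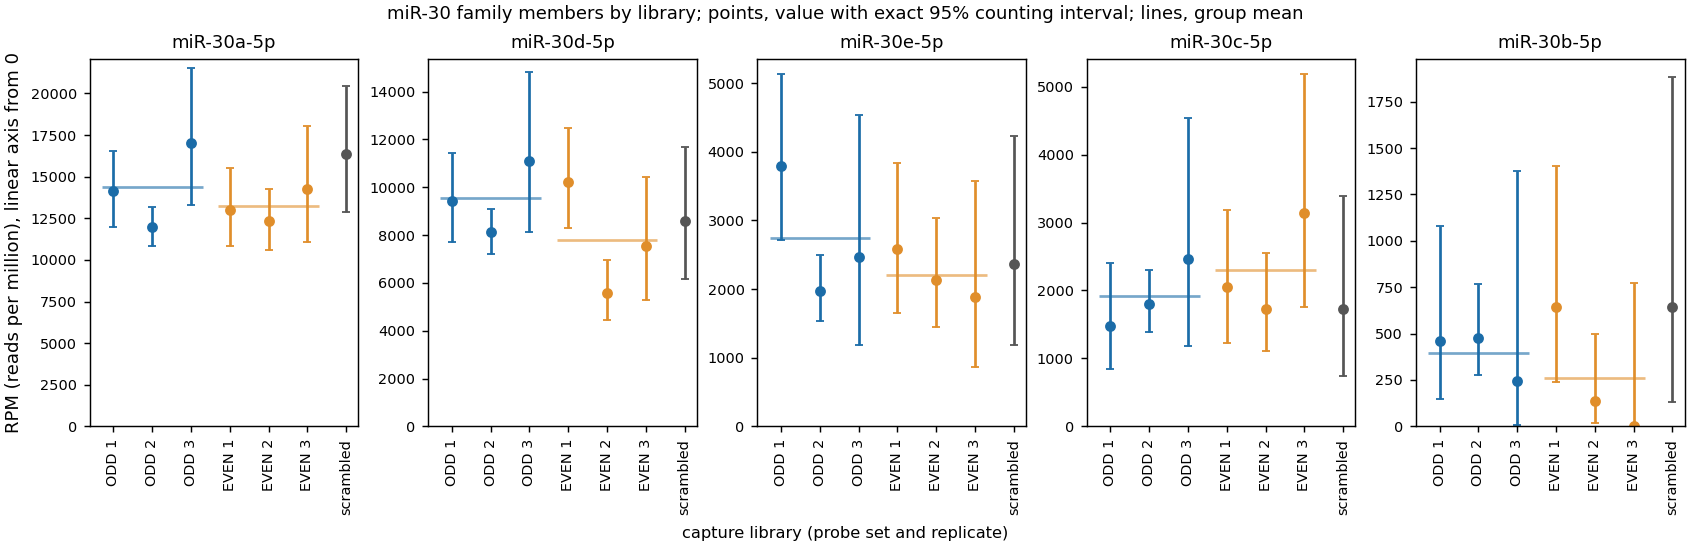
RPM of each member (linear axes from 0, a separate scale for each panel) in the ODD, EVEN and scrambled libraries, with points for single libraries, bars for exact 95% counting intervals and horizontal lines for the ODD and EVEN means. miR-30a-5p runs from 11969 to 17041 RPM with X1 probes, with the scrambled library at 16355 RPM, while miR-30b-5p stays at or under 646 RPM.

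Mature microRNAs are of nearly one length, so reads of different members can be set side by side, although the efficiency with which each is cloned was not tested. How well reads were assigned among the members was not tested either. miR-30a-5p had more reads than miR-30d-5p in 7 of 7 libraries. The ratio of their reads was 1.65 ± 0.34 with X1 probes (SD, n = 6) and 1.90 with scrambled probes, and its counting interval lay above 1 in 6 of 7 libraries and held 1 in EVEN replicate 1 (1.27, interval 0.966 to 1.68). miR-30d-5p stood 3.61 ± 0.85 times as high as miR-30e-5p with X1 probes (SD, n = 6) and 3.64 times with scrambled probes, with the interval above 1 in 7 of 7 libraries. miR-30e-5p and miR-30c-5p could not be ordered, since the interval of their ratio held 1 in 6 of 7 libraries and was above 1 in ODD replicate 1 alone (2.56, interval 1.41 to 4.89). miR-30c-5p exceeded miR-30b-5p in all 7 libraries, with the interval above 1 in 6 and holding 1 in the scrambled library (2.67, interval 0.640 to 15.6).

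Within the family, miR-30a-5p and miR-30d-5p together held 82.0% ± 1.38 of the reads in X1-probe captures (SD, n = 6), against 84.1% in the scrambled one. miR-30a-5p held 49.5% ± 1.45 with ODD probes and 51.7% ± 5.46 with EVEN probes (SD, n = 3 each), and 55.1% with scrambled probes (exact 95% interval 46.4% to 63.5%). miR-30d-5p held 32.9% ± 0.668 with ODD probes and 29.8% ± 5.39 with EVEN probes (SD, n = 3 each), and 29.0% with scrambled probes (interval 21.6% to 37.3%). For miR-30e-5p the shares were 9.05% ± 2.16 with X1 probes (SD, n = 6) and 7.97% with scrambled probes. For miR-30c-5p they were 7.77% ± 2.17 with X1 probes (SD, n = 6) and 5.80% with scrambled probes. miR-30b-5p held 1.20% ± 0.876 in X1-probe captures (SD, n = 6), against 2.17% in the scrambled one. The scrambled shares of all 5 members lay inside the X1-probe ranges.

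**Figure D2:**
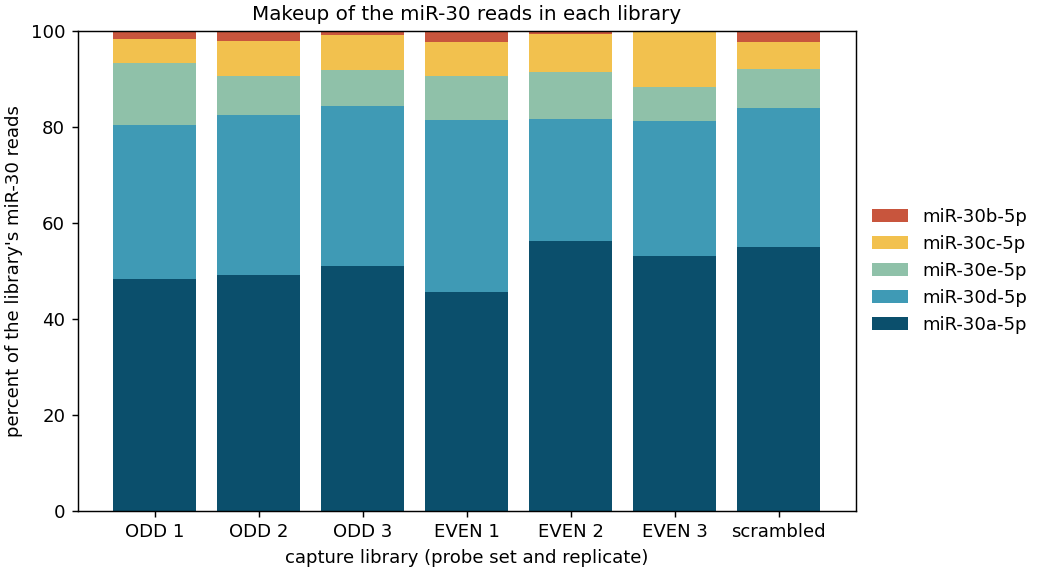
Share of each member (percent of the library's miR-30 reads) in the 7 libraries, stacked from miR-30a-5p at the bottom to miR-30b-5p at the top. miR-30a-5p and miR-30d-5p together fill 80.4% to 84.4% of each X1-probe bar and 84.1% of the scrambled bar.

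The first comparison set the X1-probe captures against the scrambled one. No member passed. Differences were tested by limma on log2(RPM + 10) over 242 microRNAs, with Benjamini-Hochberg adjustment at 0.05, and all 5 members were among those tested. Over all microRNAs 0.826% were called (2 of 242, both higher), and 0 of 5 members were. At an unadjusted limma p under 0.05 stood 17 higher and 4 lower of the 242 microRNAs, and 0 of the 5 members. With a lone scrambled library, its spread was taken to be that of the other groups.

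miR-30a-5p averaged 13798 ± 1838 RPM over the X1-probe captures (SD, n = 6), against 16355 RPM in the scrambled one. By limma this was a log2 difference of -0.26 ± 0.31 (SE) with an adjusted p of 0.675 and a 95% interval from -0.88 to 0.37. In terms of fold the interval runs from 0.543 to 1.29. For miR-30d-5p, at 8669 ± 2001 RPM with X1 probes (SD, n = 6), the log2 difference was -0.025 (-0.73 to 0.68), and for miR-30e-5p, at 2473 ± 700 RPM, it was 0.022 (-0.93 to 0.97). These 2 members thus had intervals that held fold differences from 0.601 to 1.61 and from 0.525 to 1.96, and the sign of both turned under other settings. miR-30c-5p averaged 2111 ± 608 RPM over the X1-probe captures (SD, n = 6), with a log2 difference of 0.25 (-0.77 to 1.26). For miR-30b-5p the log2 difference was -1.74 with an interval of -5.24 to 1.76, a size set largely by the pseudocount, since 1 library was at 0 reads. A p-value that misses the threshold does not show that the levels were alike, and the intervals bound what could have been seen.

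The median log2 difference was -0.025 over the 5 members and 0.096 over all 242 tested microRNAs. Differences were above 0 for 2 of the 5 members and for 127 of the 242. The scrambled library lay outside the range of the X1-probe libraries for 0 of 5 members, while 33.9% of all tested microRNAs had such a separation. Against the scrambled library alone, miR-30a-5p had log2 differences of -0.20 with ODD and -0.31 with EVEN probes, miR-30c-5p 0.12 and 0.37, miR-30d-5p 0.14 and -0.19, miR-30e-5p 0.16 and -0.11, and miR-30b-5p -0.75 and -2.73. Both sets of differences share that 1 scrambled library, and none passed (limma, adjusted p from 0.667 to 0.922 over the 5 members and both probe sets).

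**Figure D3:**
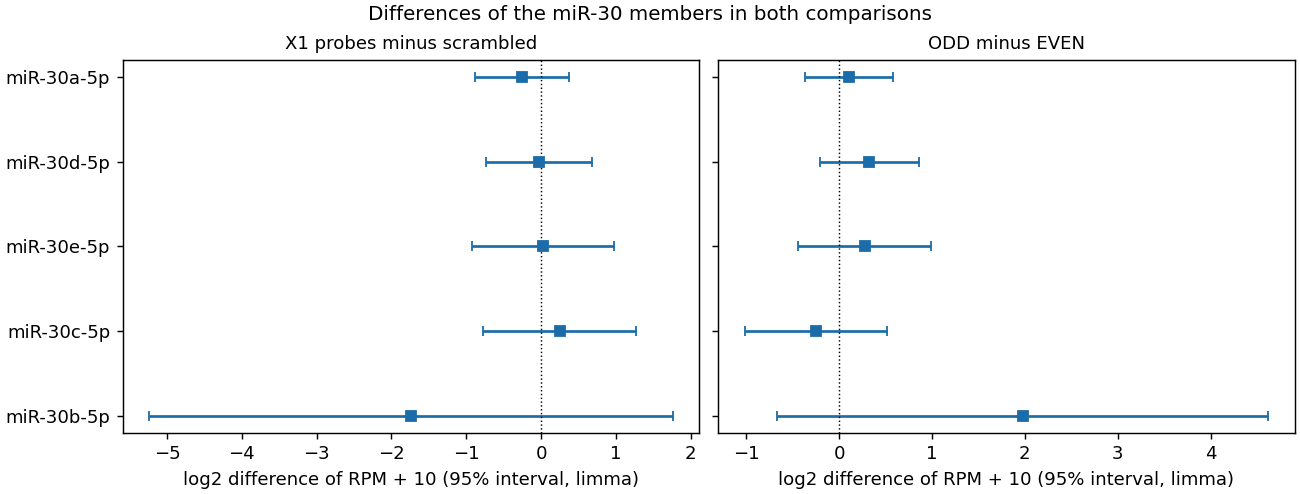
Log2 differences of RPM + 10 (x axis) for the 5 members (y axis) with X1 probes minus scrambled on the left and ODD minus EVEN on the right, squares for the limma estimate and bars for its 95% interval. All 10 intervals hold 0, and those of miR-30b-5p are the widest, at -5.24 to 1.76 and -0.67 to 4.62.

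A number of unstated meaning stands in the description of each capture: both replicates 1 have 9, both replicates 2 have 10, and both replicates 3 share 12 with the scrambled library. The libraries with number 12 were also the 3 shallowest. For miR-30a-5p the X1-probe libraries with number 12 had 14265 and 17041 RPM and the other X1-probe libraries 11969 to 14138 RPM, with the scrambled library at 16355 RPM. For miR-30c-5p they had 2470 and 3147 RPM and the other X1-probe libraries 1478 to 2045 RPM, while the scrambled library, also of number 12, had 1722 RPM. For the other 3 members the ranges of these libraries overlapped. Within number 12 the log2 difference from the scrambled library was -0.069 for miR-30a-5p, 0.69 for miR-30c-5p, 0.090 for miR-30d-5p, -0.13 for miR-30e-5p and -3.69 for miR-30b-5p, each from 2 libraries against 1 and without a test. Number, depth and replicate cannot be told apart here.

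The second comparison set the ODD against the EVEN captures, which target the same transcript. No member passed here either: 0 of 5 members were called, against 0.413% of all tested microRNAs (1 of 242, let-7f-5p, lower). At an unadjusted limma p under 0.05 stood 5 higher and 6 lower of the 242 microRNAs, and 0 of the 5 members. miR-30d-5p averaged 9550 ± 1505 RPM in ODD and 7788 ± 2326 RPM in EVEN captures (SD, n = 3 each). Its log2 difference by limma was 0.33 ± 0.26 (SE), with a 95% interval from -0.21 to 0.86, an adjusted p of 0.979 and an exact two-sided permutation p of 0.4, where 0.1 is the smallest that 3 against 3 can give. Without EVEN replicate 2, the lowest library, the log2 difference was 0.11, without EVEN replicate 1 it was 0.54, and without ODD replicate 3 it was 0.21.

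miR-30a-5p stood at 14383 ± 2545 RPM in ODD and 13213 ± 971 RPM in EVEN captures (SD, n = 3 each), a log2 difference of 0.11 (-0.36 to 0.58) that ran from -0.020 without ODD replicate 3 to 0.23 without ODD replicate 2, with 0.063 without EVEN replicate 2 and 0.17 without EVEN replicate 3. miR-30e-5p had 2743 ± 939 and 2203 ± 352 RPM in ODD and EVEN captures (SD, n = 3 each), a log2 difference of 0.27 (-0.45 to 0.99). Without ODD replicate 1, in which miR-30e-5p was highest, its log2 difference was 0.014, against 0.17 without EVEN replicate 3 and 0.48 without ODD replicate 2. miR-30c-5p averaged 1917 ± 505 RPM in ODD and 2305 ± 746 RPM in EVEN captures (SD, n = 3 each), a log2 difference of -0.25 (-1.02 to 0.52). That difference was -0.0030 without EVEN replicate 3, -0.080 without ODD replicate 1, -0.43 without EVEN replicate 2 and -0.45 without ODD replicate 3. miR-30b-5p had 23 reads with ODD and 8 reads with EVEN probes. Its levels were 396 ± 129 and 261 ± 340 RPM in ODD and EVEN captures (SD, n = 3 each), with a log2 difference of 1.98 (-0.67 to 4.62) that again follows the pseudocount and was 0.32 without EVEN replicate 3, the library at 0 reads, and 3.34 without EVEN replicate 1. Exact two-sided permutation p-values for these 4 members were 0.6 to 0.7, unadjusted.

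The median log2 difference was 0.27 over the members and 0.072 over all tested microRNAs. The ODD and EVEN libraries overlapped for all 5 members, where 7.02% of the tested microRNAs had groups that did not overlap. Within description numbers 9, 10 and 12, miR-30d-5p differed by -0.12, 0.54 and 0.56 and miR-30c-5p by -0.47, 0.063 and -0.35 on the log2 scale, so neither had 1 direction in all 3 pairs. miR-30a-5p (0.12, -0.045 and 0.26), miR-30e-5p (0.55, -0.12 and 0.39) and miR-30b-5p (-0.47, 1.72 and 4.68) also changed sign between the pairs.

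**Figure D4:**
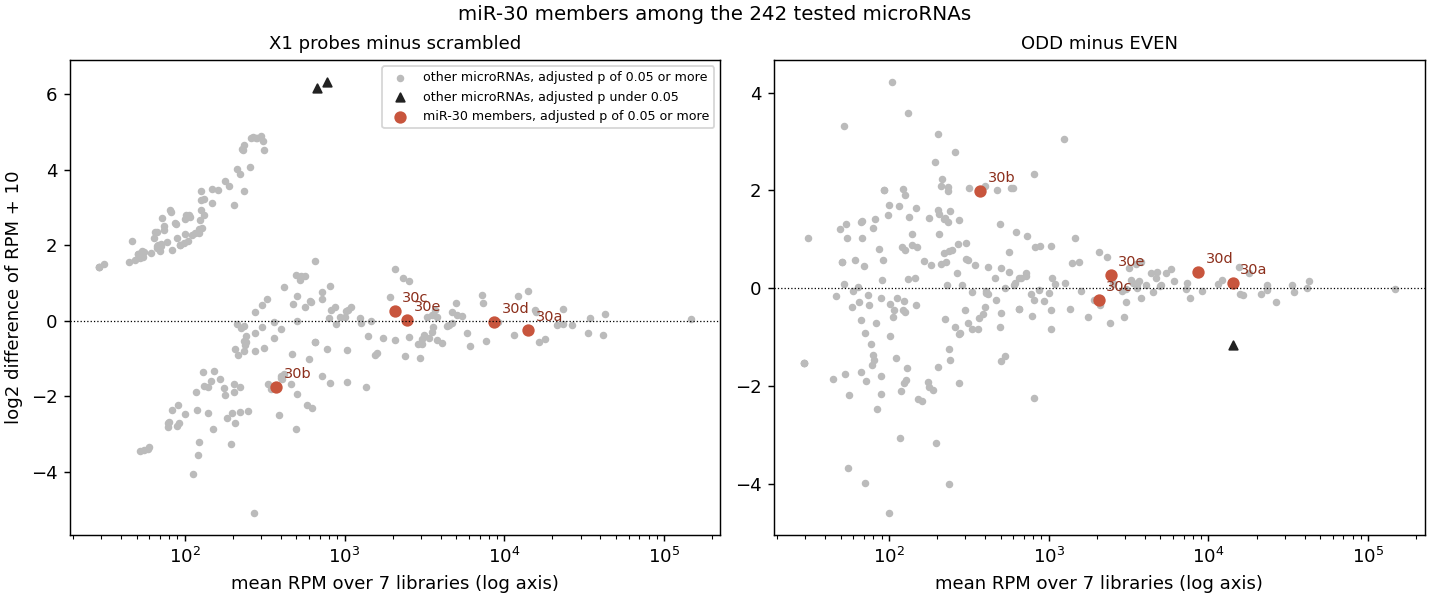
Log2 difference of RPM + 10 (y axis) against mean RPM over the 7 libraries (x axis, log scale) for the 242 tested microRNAs, with the miR-30 members labelled by their letter and triangles for microRNAs with an adjusted p under 0.05. The members above 1000 RPM lie between -0.26 and 0.25 on the left and between -0.25 and 0.33 on the right, among other microRNAs of like level.

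How far the libraries spread was set against counting error. With the reads of each member expected in proportion to depth over the 6 X1-probe libraries, the chi-square per degree of freedom was 1.23 for miR-30c-5p and 1.36 for miR-30b-5p, close to the value of 1 that counting alone would give on average. It was 2.02 for miR-30a-5p, 2.53 for miR-30e-5p and 4.63 for miR-30d-5p, given here as a description of the spread between captures, without a test. At a given relative spread beyond counting error this value grows with read number, so few reads can hide such spread. X1-probe reads were 31 for miR-30b-5p and 149 for miR-30c-5p, against 647 for miR-30d-5p. The coefficient of variation over the X1-probe libraries was 13.3% for miR-30a-5p, 23.1% for miR-30d-5p, 28.3% for miR-30e-5p, 28.8% for miR-30c-5p and 73.5% for miR-30b-5p.

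Among the members whose sequences are shown, miR-30a-5p and miR-30e-5p are 1 base apart, so their reads were also summed. The sum differed by -0.21 on the log2 scale between X1 and scrambled probes (limma, 95% interval -0.82 to 0.40, adjusted p = 0.693) and by 0.14 between ODD and EVEN probes (-0.32 to 0.60, adjusted p = 0.979), so neither comparison passed with the 2 members combined. Whether reads passed between these names was not tested. The sequences of miR-30b-5p and miR-30d-5p were not compared, so whether reads passed between them and other members was not tested either.

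Each miR-30 hairpin also yields a 3p arm, the strand opposite the 5p member, which has another seed. The sequences of 4 of the 6 3p arms are shown from RefSeq (GRCh38.p14), seed in capitals, because those of miR-30c can tell its 2 copies apart where the 5p arm cannot.
miR-30a-3p: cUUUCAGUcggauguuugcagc
miR-30e-3p: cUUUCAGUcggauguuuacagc
miR-30c-1-3p: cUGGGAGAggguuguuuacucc
miR-30c-2-3p: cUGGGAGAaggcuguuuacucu
miR-30a-3p lies at chr6:71403554-71403575 (minus strand), miR-30e-3p at chr1:40754413-40754434 (plus strand), miR-30c-1-3p at chr1:40757339-40757360 (plus strand) and miR-30c-2-3p at chr6:71376964-71376985 (minus strand). miR-30a-3p and miR-30e-3p share a seed and differ by the substitution G18A. The 3p arms of miR-30c-1 and miR-30c-2 share another seed and differ by G9A, U12C and C22U.

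All 6 3p arms of the family were rare. miR-30a-3p had 13 reads with ODD, 15 with EVEN and 3 with scrambled probes, or 441 ± 300 RPM over the X1-probe captures (SD, n = 6), against 646 RPM in the scrambled one. miR-30c-2-3p had 17 reads with X1 probes, miR-30e-3p 12, miR-30d-3p 4, and miR-30b-3p and miR-30c-1-3p 2 each, all with 0 reads with scrambled probes. With 3 reads as the floor, a count of 0 in the scrambled library allows up to 646 RPM (the exact 95% interval reaches 794 RPM), above the X1-probe mean of each of these 5, so no fold is given. The 4 arms that were tested, miR-30a-3p, miR-30c-2-3p, miR-30d-3p and miR-30e-3p, did not pass in either comparison (limma, adjusted p from 0.673 to 0.692 for X1 against scrambled probes and from 0.979 to 0.982 for ODD against EVEN probes). Of the 19 reads of miR-30c 3p arms, 17 carried the name of the copy on chromosome 6 and 2 that of the copy within NFYC.

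The share of reads from the 3p arm was compared between hairpins. Summed over the X1-probe libraries, to which ODD replicate 2 gave the most reads, it was 11.3% for miR-30c (19 of 168 reads with both copies, interval 6.95% to 17.1%), 6.09% for miR-30e (3.19% to 10.4%), 2.68% for miR-30a (1.79% to 3.86%) and 0.614% for miR-30d (0.168% to 1.57%). In the ODD captures alone it was 10.9% for miR-30c (5.56% to 18.7%) and 0.229% for miR-30d (0.0058% to 1.27%), and in the EVEN captures 11.9% (5.30% to 22.2%) and 1.40% (0.289% to 4.02%). Over all X1-probe captures the intervals of miR-30c and miR-30e lie above that of miR-30d, and the interval of miR-30c also lies above that of miR-30a. These intervals pool reads and leave out the spread between captures, over which 3p reads were uneven. Of the 17 miR-30c-2-3p reads, ODD replicate 2 held 8 and EVEN replicate 2 held 6. EVEN replicate 2 also held 11 of the 15 EVEN reads of miR-30a-3p. In the EVEN captures alone the intervals of miR-30e (1.63% to 14.4%) and miR-30d overlapped, as did those of miR-30c and miR-30a (2.21% to 6.38%). For miR-30b it was 6.06% (0.743% to 20.2%), too few reads to place it. By library the 3p share of the whole family was 1.49% to 5.92% with X1 probes and 2.13% with scrambled probes (interval 0.441% to 6.09%), with EVEN replicate 2 highest and EVEN replicate 1 lowest.

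**Figure D5:**
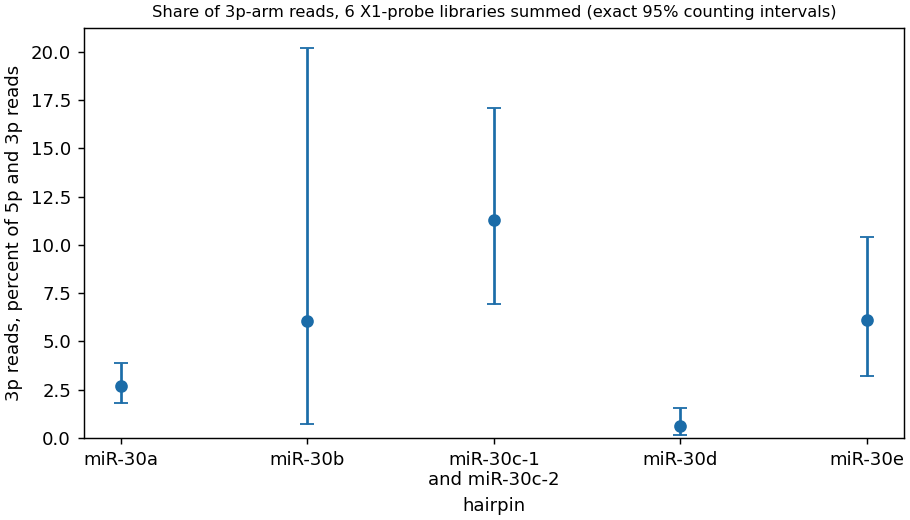
Reads of the 3p arm as a percent of 5p and 3p reads (y axis, from 0) for each miR-30 hairpin (x axis), summed over the 6 X1-probe libraries, with bars for exact 95% counting intervals. The share is 11.3% for the miR-30c hairpins and 0.614% for miR-30d, and the bar of miR-30b reaches 20.2%.

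The members' profiles over the 7 libraries were set side by side. Pearson correlations of log2(RPM + 10) between pairs of members ran from -0.77 (miR-30b-5p with miR-30c-5p) to 0.55 (miR-30a-5p with miR-30d-5p). All points share the library, its depth and its RPM total, and weak values at these read numbers carry no finding. Among 64 microRNAs of at least 1000 RPM outside the family, the profile most like the family's sum was that of miR-1246 (r = 0.91), followed by miR-378a-3p (0.78) and miR-222-3p (0.67). By member, the most alike were miR-222-3p for miR-30a-5p (0.87), miR-1246 for miR-30d-5p (0.80), miR-99b-5p for miR-30e-5p (0.91), miR-191-5p for miR-30c-5p (0.62) and let-7b-5p for miR-30b-5p (0.96). These values were picked as the highest among 64 over 7 libraries, which alone favours high values, and were not tested. The profile of miR-30b-5p rests on 0 to 17 reads per library.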

How the data were processed

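Small RNA reads of 7 captures were deposited by the authors as RPM in a table of 498 rows, where a row pairs a hairpin with a mature name. CASAVA 1.8 and cutadapt 1.2.1 were used, per the submitters' processing notes; for the aligner, counting rule and annotation, the sources used here give no name. Each deposited column summed to 1000000 and every value was a whole multiple of 1 read's worth, so reads and depth were recovered from the values (largest deviation 3.4e-12 reads). For the 17 names with several rows, the row with the most RPM was used.

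MicroRNAs with at least 10 RPM in at least 3 libraries (242 of 480) entered a two-sided limma fit (limma 3.58.1, R 4.3.3) of log2(RPM + 10), with a mean per group and an eBayes trend. A run on simulated reads, with counting error alone and large changes set in the ODD libraries, checked that the fit finds some changes in the right direction. It asked for only a small part of the set changes to be called, so it does not show how many large changes the fit would miss. It did not cover small differences or the comparison with scrambled probes. No 2 libraries held identical values, and every pair differed in a chi-square test of reads (highest unadjusted p = 0.00403). The design text calls the captures independent, and nothing says whether they came from separate cultures, so p-values rest on a spread between captures. The fit draws that spread largely from the trend over all tested microRNAs (28.6 prior against 4 residual degrees of freedom), not from each member alone.

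Members, marker lists and tests were chosen with earlier results of these data known. Named besides members were the 3p arms, the 2 microRNAs above and below each member in level, and the most correlated of at least 1000 RPM.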

Additional observations from a re-analysis of the deposited data

Results flagged for a closer look

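The level of miR-30e-5p in ODD replicate 1, at 3789 RPM (41 reads, exact 95% interval 2720 to 5136 RPM), stood apart from the other 5 X1-probe libraries, which had 1888 to 2583 RPM. Its gap to the next library was 0.634 of the whole range, above Dixon's critical value of 0.625 for 6 samples. Chance flags about 1 in 20 groups, and 6 sets of values were looked at. The scrambled library had 2367 RPM.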

How the results depend on the processing

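No miR-30 member passed in either comparison under any of 15 alternatives each (limma, lowest adjusted p 0.402, for miR-30b-5p between ODD and EVEN probes, which is not tested at a mean of at least 1000 RPM). Summing miR-30a-5p with miR-30e-5p and the values within description number 12 were chosen after seeing the data. With X1 against scrambled probes the log2 difference of miR-30d-5p turned to 0.011 with RPM over 1 row per mature name and to 0.090 both with the description number as a block and within number 12. That of miR-30e-5p turned to -0.13 with the block and within number 12. In this comparison the block and number 12 give the same value by design, because the scrambled library has number 12. Leaving out 1 library gave -0.13 to 0.084 for miR-30d-5p and -0.11 to 0.13 for miR-30e-5p. Between ODD and EVEN probes it gave -0.020 to 0.23 for miR-30a-5p, with the sign turned without ODD replicate 3. The causes were not tested. The share of the RPM total held by the family was 3.75% over 1 row per mature name, as that total leaves out repeated hairpin rows, and 2.62% to 2.85% without 1 library. Over all microRNAs the calls ran from 0 (pseudocount 250, a mean of at least 1000 RPM, the block) to 12 (no filter), against 2, for X1 probes against scrambled, and from 0 to 3, against 1, for ODD against EVEN. Deviations of same-numbered ODD and EVEN captures had r from -0.044 to 0.072. Counting error at these read numbers also pulls r towards 0, so r cannot tell whether the number pairs them. The replicate block called 0 members. The planned edgeR and DESeq2 alternatives were not run. Depth limits miR-30b-5p most, with 3 reads in the scrambled library.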
